A study of Mus musculus with 20 samples.

Results

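Hyaluronan is a long sugar polymer of the extracellular matrix. The genes described here are 10 that make it, bind it or break it down, taken by their symbols from a table of 45777 genes: the hyaluronan synthases Has1, Has2 and Has3, the hyaluronidases Hyal1 and Hyal2, the hyaluronan-degrading protein gene Cemip, the receptors Cd44 and Lyve1, the hyaluronan-binding proteoglycan Vcan and the hyaluronan-crosslinking factor Tnfaip6. Each of the 10 was above 0 in all libraries, and was thus among the 18706 genes tested. They were selected with their levels in these 4 groups known, so their levels and fold changes are given below as a description, without p-values.

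RNA was sequenced from the uterus of wild-type B6D2F1 female mice aged 8 to 12 weeks, 1 library per mouse and 5 mice per group, collected at 18:00 on day 3.5 after mating (the morning of the plug being day 0.5), and 1 horn of each uterus was used. Control mice received no treatment. IF mice, the implantation failure model, received low-dose RU486 (mifepristone, an antagonist of the progesterone and glucocorticoid receptors) under the skin on the morning of day 3.5. PBMC mice additionally received peripheral blood mononuclear cells of non-pregnant female mice, cultured without hCG, in the uterine cavity on day 1.5, and PBMC-hCG mice received such cells cultured with hCG (human chorionic gonadotropin, the hormone by which the human embryo signals pregnancy). RU486 was thus shared by all groups but the control, and the IF mice had no injection into the uterus. The study's mice injected with medium without cells, which contained hCG, were not analysed here. The cells and the injection thus cannot be told apart in a comparison with IF. Any hCG injected along with the PBMC-hCG cells cannot be told apart either, also in a comparison with PBMC.

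Hyaluronan synthases sit in the plasma membrane and extend the chain from UDP-sugars made in the cytosol. The finished chain is held at the cell by CD44, organised by versican and by heavy chains that TSG-6 (the product of Tnfaip6) transfers onto it, cut by hyaluronidases and CEMIP, and drained through lymph vessels lined by LYVE1. In the rodent uterus hyaluronan follows the sex steroids, binds water in the stroma and is remodelled around implantation.

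Values are TPM, transcript shares of a library corrected for transcript length, so that levels of different genes can be set side by side within a library. The libraries summed to between 999988.5 and 999999.4 TPM, and 22702 to 24097 genes were above 0, but the number of reads is unknown. The 5 uterus markers Hoxa10, Hoxa11, Pgr, Esr1 and Hand2 were above 0 in every library. Control replicate 2 stood apart. Its median correlation with its group was 0.963, against 0.98 to 0.99 for the other libraries. Its 4 fat markers summed to 89.2 TPM, against at most 12.4 in any other library, and its 8 stroma markers to 5837 TPM, against 10180 to 13160. Results that rest on it are given with and without it. In whole uterus, fewer cells of a type and less RNA per cell cannot be told apart.

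Has1 was the hyaluronan synthase whose level differed most between the groups. It was 6.42, 2.38, 2.18, 3.82 and 7.03 TPM in the 5 control mice, 17.1, 27.7, 13.2, 9.56 and 32.9 in the IF mice, 3.07, 9.91, 20.6, 8.89 and 33.3 in the PBMC mice and 6.99, 3.88, 1.12, 1.32 and 2.24 in the PBMC-hCG mice. Every IF mouse lay above every control mouse and every PBMC-hCG mouse, while the PBMC mice spread from the control range to the top of the IF range. The means were 4.37 ± 2.26, 20.1 ± 9.88, 15.2 ± 11.95 and 3.11 ± 2.43 TPM (SD, n = 5). On the log2 scale Has1 was higher in IF than in control by 2.19 ± 0.58 (SE) and lower in PBMC-hCG than in IF, with a difference of -2.82 ± 0.58, and than in PBMC, with -2.15 ± 0.58. PBMC differed from IF by -0.67 ± 0.58, and PBMC-hCG from control by -0.64 ± 0.58. In the order of means, IF, PBMC, control and PBMC-hCG, each group overlapped its neighbour.

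**Figure D1:**
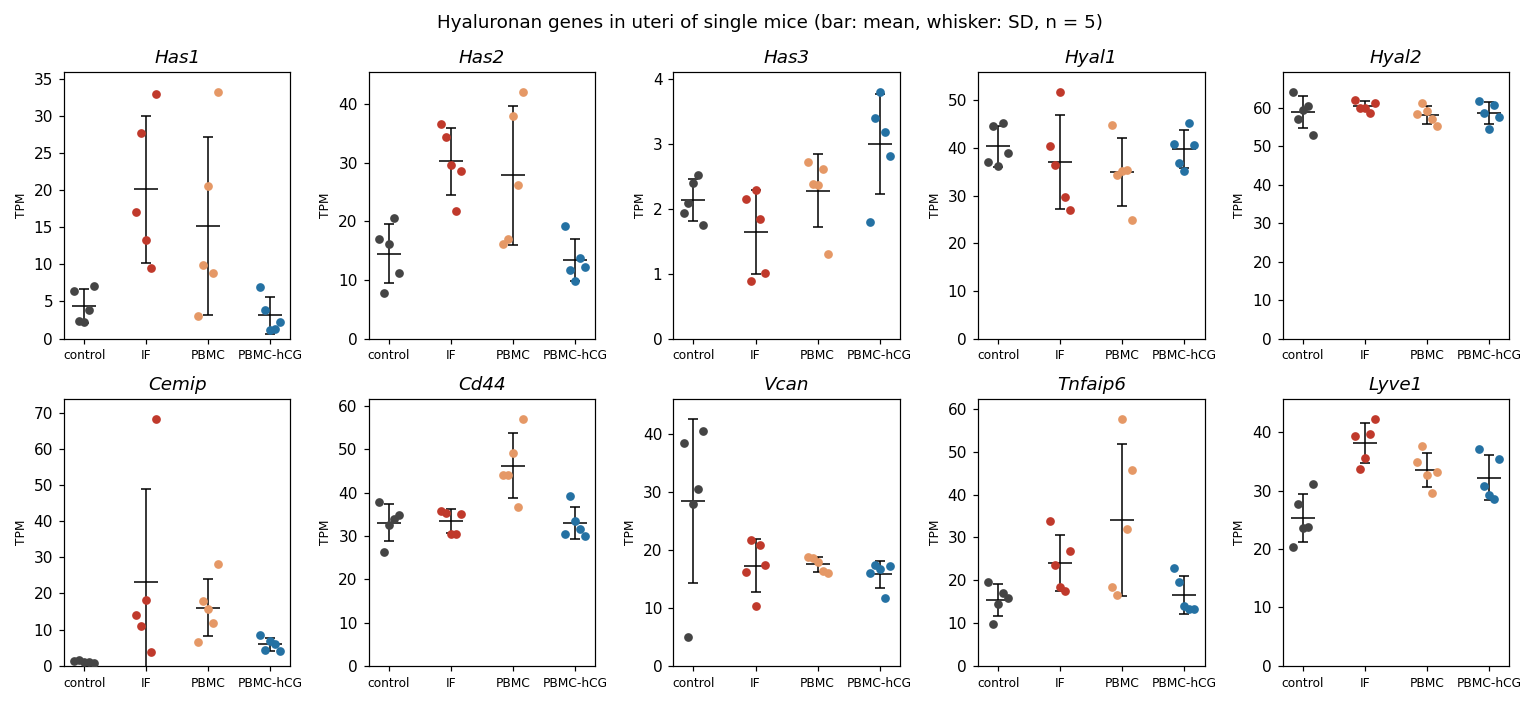
TPM of the 10 hyaluronan genes (y axes, linear and starting at 0) in the uteri of single mice (points) by group, with the mean and SD (n = 5), where a whisker that would reach below 0 is cut at the axis. The IF points of Has1, Has2, Cemip and Lyve1 all lie above the control points, the PBMC points of Cd44 all lie above the IF points, and 1 control point of Vcan lies at 5.04 TPM.

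Has1 lies at chr17:17833691-17855589 (GRCm38.p6) and its annotated span overlaps that of Spaca6, a sperm-egg fusion gene, on the opposite strand. The libraries were made with a stranded kit, but whether strand was used in the quantification is not given in the sources used here. The exons of both genes share 0 of 4518 exonic bases of Has1. Spaca6 was 10.2 ± 3.35 TPM in control, 18.1 ± 2.54 in IF, 16.7 ± 3.49 in PBMC and 12.6 ± 2.68 in PBMC-hCG (SD, n = 5), so it was highest in IF too, over a narrower range.

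The promoter of Has1 is shown because this gene differed most among the synthases, with those of Cemip, which differed most among the breakdown genes, and of Tnfaip6, whose level moved with Has1 and Has2 from mouse to mouse. Tnfaip6 was chosen after its values were seen. The sequences are 300 bases around the start site in RefSeq (GRCm38.p6), mostly upstream of it, at chr17:17855139-17855438 on the minus strand, chr7:84086456-84086755 on the minus strand and chr2:52037863-52038162 on the plus strand. Capitals mark matches, on either strand, to the motifs searched.
Has1: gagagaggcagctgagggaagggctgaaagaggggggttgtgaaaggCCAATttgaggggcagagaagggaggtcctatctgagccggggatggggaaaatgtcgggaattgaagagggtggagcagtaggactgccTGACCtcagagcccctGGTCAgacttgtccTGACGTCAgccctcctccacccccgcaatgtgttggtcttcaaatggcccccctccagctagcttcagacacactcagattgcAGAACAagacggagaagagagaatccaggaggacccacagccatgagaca
Cemip: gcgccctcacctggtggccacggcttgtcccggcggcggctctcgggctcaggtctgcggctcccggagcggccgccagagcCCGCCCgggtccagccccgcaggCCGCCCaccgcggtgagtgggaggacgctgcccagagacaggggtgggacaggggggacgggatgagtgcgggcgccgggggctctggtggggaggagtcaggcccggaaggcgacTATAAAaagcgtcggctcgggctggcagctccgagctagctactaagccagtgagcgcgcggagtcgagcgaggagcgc
Tnfaip6: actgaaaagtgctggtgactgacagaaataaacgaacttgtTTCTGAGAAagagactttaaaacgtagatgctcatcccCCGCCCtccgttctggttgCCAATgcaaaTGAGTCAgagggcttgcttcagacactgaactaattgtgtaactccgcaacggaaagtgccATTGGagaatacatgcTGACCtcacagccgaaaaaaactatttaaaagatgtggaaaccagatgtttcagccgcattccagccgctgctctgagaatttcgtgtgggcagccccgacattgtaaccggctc

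The motifs were the TATA box (TATAAA, in 13.6% of the 32851 promoters of the table), the CCAAT box (CCAAT, 37.4%), the GC box (GGGCGG, 35.7%), the AP-1 site (TGANTCA, 7.81%), the STAT site (TTCNNNGAA, 8.30%), and the core letters of the cAMP response element (TGACG, 20.8%), of the glucocorticoid and progesterone receptor site (TGTTCT, 18.97%) and of the estrogen receptor site (GGTCA, 40.5%). Within the Has1 window the search found 1 CCAAT box, 2 overlapping cAMP response element cores on opposite strands at positions -83 to -79 and -80 to -76 from the start, 1 glucocorticoid and progesterone receptor core and 2 estrogen receptor cores. In the Cemip window it found 1 TATA box, at -29 to -24, and 2 GC boxes. The Tnfaip6 window held 2 CCAAT boxes, 1 GC box, 1 AP-1 site, 1 STAT site and 1 estrogen receptor core. GC content was 57.0% for Has1, 73.7% for Cemip and 47.0% for Tnfaip6, against a median of 52.7% over all promoters. A match describes letters only, and binding was not measured here. Of the 10 genes, 7 had a promoter in the table.

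Has2, at chr15:56665627-56694546, was the most abundant synthase in most mice. It was 16.97, 7.74, 16.03, 20.5 and 11.1 TPM in the control mice, 36.6, 34.3, 29.6, 21.7 and 28.6 in the IF mice, 16.1, 16.96, 37.9, 26.2 and 42.1 in the PBMC mice and 19.3, 11.6, 9.77, 13.8 and 12.2 in the PBMC-hCG mice. The IF mice lay above all control and all PBMC-hCG mice, and the PBMC mice overlapped every other group. Has2 was higher in IF than in control by 1.11 ± 0.28 on the log2 scale (SE), a difference of 0.91 without control replicate 2. It was lower in PBMC-hCG than in IF by a log2 difference of -1.19 ± 0.28 and differed from PBMC by -0.99 ± 0.28. The antisense transcript Has2os, which shares 182 of the 4237 exonic bases of Has2, was at 1.29 ± 0.411 TPM in control and 0.872 ± 0.304 in IF (SD, n = 5), and so did not go the way of Has2.

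Has3, at chr8:106870242-106882902, encodes a synthase of shorter chains and had the lowest mean of the 3 in every group, although it exceeded Has1 in some control and PBMC-hCG mice. It was 1.94, 2.08, 2.39, 2.52 and 1.75 TPM in control, 2.15, 0.886, 2.28, 1.85 and 1.02 in IF, 2.71, 2.38, 2.37, 2.61 and 1.31 in PBMC and 1.79, 3.41, 3.80, 3.18 and 2.81 in PBMC-hCG mice. At its ends the order of groups ran against that of Has1 and Has2, with the lowest mean in IF, 1.64 ± 0.647 TPM, and the highest in PBMC-hCG, 2.997 ± 0.765 (SD, n = 5). The difference between PBMC-hCG and IF was 0.89 ± 0.26 on the log2 scale (SE). All neighbouring groups overlapped in that order.

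The 3 synthases together amounted to 20.98 ± 5.73 TPM in control, 51.9 ± 12.7 in IF, 45.3 ± 22.9 in PBMC and 19.4 ± 5.06 in PBMC-hCG (SD, n = 5). All IF sums, 33.1 to 62.9 TPM, were above all control sums, 12.2 to 26.8, and above all PBMC-hCG sums, 14.7 to 28.03. The composition differed as well as the amount. Has1 made up 20.99 ± 9.75% of the sum in control, 37.1 ± 10.8% in IF, 29.8 ± 11.3% in PBMC and 14.7 ± 7.87% in PBMC-hCG. Has3 made up 10.9 ± 3.74% in control, 3.50 ± 1.92% in IF, 6.61 ± 4.10% in PBMC and 16.8 ± 6.95% in PBMC-hCG. Has2 was the main part in every group, at means of 59.4% to 68.6%.

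**Figure D2:**
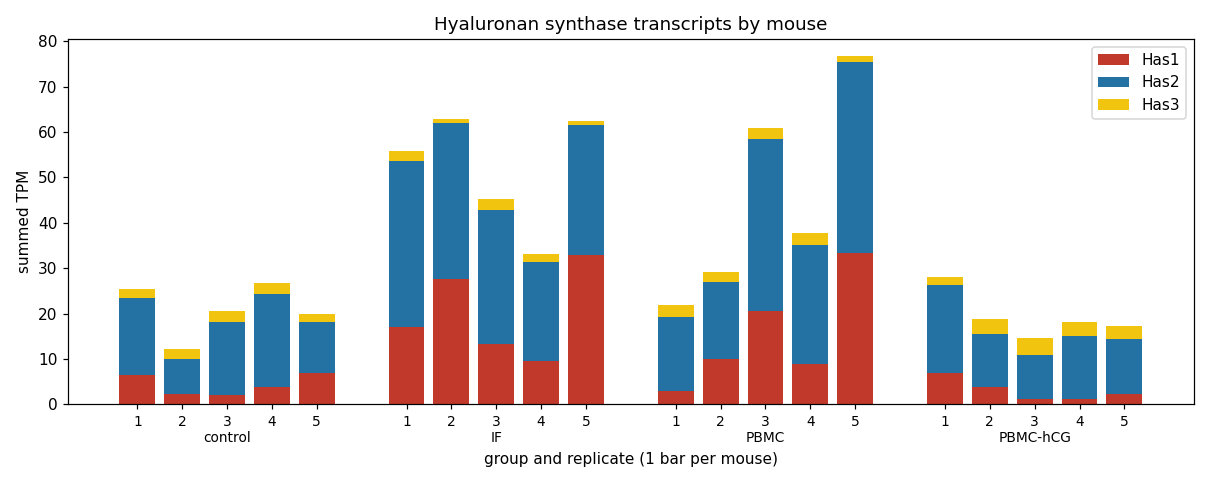
Summed TPM of Has1 (red), Has2 (blue) and Has3 (yellow) in each mouse (1 bar per mouse, y axis linear from 0), by group and replicate number. IF sums run from 33.1 to 62.9 TPM, and PBMC sums spread from 21.9 to 76.7 TPM, from the control level to above the IF level.

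Among the breakdown genes the group differences were largest for Cemip, while all groups overlapped for both hyaluronidases. Cemip, at chr7:83932857-84086693, encodes a protein needed for the cutting of hyaluronan outside the cell. It was 1.28, 1.63, 1.04, 1.15 and 0.753 TPM in control, 13.97, 10.9, 18.1, 3.91 and 68.3 in IF, 6.71, 17.96, 15.7, 11.9 and 28.02 in PBMC and 8.55, 4.49, 6.86, 5.93 and 4.07 in PBMC-hCG mice. All mice that received RU486 lay above all control mice. Within the IF group, replicate 5 stood far above the others. On the log2 scale Cemip was higher in IF than in control by 3.61 ± 0.52 (SE), or 3.06 without IF replicate 5. PBMC-hCG was lower than IF by a log2 difference of -1.36 ± 0.52, which shrank to -0.81 without that mouse, and lower than PBMC by -1.31 ± 0.52. PBMC-hCG nonetheless remained above control by 2.25 ± 0.52, and only in that place of the order of means, IF, PBMC, PBMC-hCG and control, did neighbouring groups not overlap. The median over the 5 mice was 13.97 TPM in IF and 15.7 in PBMC, although the IF mean of 23.03 ± 25.8 exceeded the PBMC mean of 16.1 ± 7.93 (SD, n = 5).

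Hyal2 (chr9:107567873-107572778), which anchors at the cell surface and cuts long chains, had the narrowest spread of the 10 genes. It ranged from 53.1 to 64.2 TPM over all 20 mice, and the log2 differences in the 4 comparisons lay between -0.06 ± 0.05 (PBMC against IF) and 0.04 ± 0.05 (IF against control, SE). Hyal1, the lysosomal enzyme that cuts the fragments further, was at 40.4 ± 4.27 TPM in control, 37.1 ± 9.79 in IF, 34.9 ± 7.10 in PBMC and 39.8 ± 3.93 in PBMC-hCG (SD, n = 5), with all groups overlapping. Its level is uncertain, since 1920 of its 3777 exonic bases (chr9:107576950-107581699) are shared with Naa80 on the same strand, itself at a mean of 45.1 TPM. Cemip supplied 1.16 ± 0.281% of the summed TPM of Hyal1, Hyal2 and Cemip in control, 16.8 ± 15.4% in IF, 14.7 ± 7.29% in PBMC and 5.71 ± 1.62% in PBMC-hCG.

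The binding genes did not share a pattern. Cd44, the main hyaluronan receptor of leukocytes and many stromal and epithelial cells (chr2:102811141-102901669), was 37.9, 26.2, 32.6, 33.9 and 34.8 TPM in control, 35.8, 35.4, 30.4, 30.6 and 34.96 in IF, 43.96, 44.1, 49.2, 36.7 and 57.04 in PBMC and 30.5, 39.2, 33.5, 31.7 and 29.9 in PBMC-hCG mice. The PBMC group stood out, since all its mice were above all IF mice. The log2 difference was 0.46 ± 0.11 (SE) from IF, and PBMC-hCG was lower than PBMC by a difference of -0.48 ± 0.11 with overlap. In the other 3 groups the means lay within 33.0 to 33.4 TPM. The T, B and NK cell markers summed to 27.4 to 51.7 TPM in IF and 27.3 to 41.5 in PBMC, and those of macrophages to 561 to 629 and 617 to 652. No marker of either list passed in limma, but 0% of all genes tested had an adjusted p under 0.05 in PBMC against IF. The part of these cells in the Cd44 difference was not tested.

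Tnfaip6 (chr2:52038113-52056681), which is induced by inflammatory signals and in the cumulus before ovulation, was 19.7, 9.67, 14.4, 16.96 and 15.9 TPM in control, 33.8, 23.7, 18.5, 17.5 and 26.7 in IF, 18.4, 16.5, 57.7, 31.9 and 45.7 in PBMC and 22.95, 19.6, 13.98, 13.2 and 13.2 in PBMC-hCG mice. Its highest values came from PBMC mice, but that group also reached down to the control range. The log2 differences were 0.64 ± 0.30 for IF against control, 0.38 ± 0.30 for PBMC against IF, -0.53 ± 0.30 for PBMC-hCG against IF and -0.90 ± 0.30 for PBMC-hCG against PBMC (SE).

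Vcan (chr13:89655309-89743027), the proteoglycan that ties hyaluronan to other matrix proteins, was 38.4, 5.04, 27.9, 30.5 and 40.4 TPM in control, 16.2, 21.7, 10.3, 20.8 and 17.3 in IF, 18.7, 18.5, 17.8, 16.3 and 16.1 in PBMC and 15.9, 17.4, 16.7, 11.7 and 17.2 in PBMC-hCG mice. Control replicate 2 held the lowest value of all, and the other control mice held the 4 highest. IF was lower than control by a log2 difference of -0.47 ± 0.39 with that mouse and -1.01 without it (SE of the first), so that this mouse decided whether Vcan met a fold change of 2. The 3 RU486 groups differed from each other by less than 1 SE.

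Lyve1 (chr7:110850607-110862953), a receptor of lymphatic endothelium and of some tissue macrophages, was 20.4, 27.8, 23.6, 23.9 and 31.1 TPM in control, 39.5, 33.8, 35.6, 39.7 and 42.3 in IF, 34.9, 37.6, 32.7, 29.6 and 33.2 in PBMC and 37.1, 30.8, 29.2, 28.6 and 35.5 in PBMC-hCG mice. All IF mice were above all control mice, by 0.60 ± 0.11 on the log2 scale (SE), and PBMC-hCG was lower than IF by a difference of -0.25 ± 0.11 with overlap. Of 6 other lymphatic endothelium markers, 3 rose in IF against control, namely Pdpn by 0.81 ± 0.23 (limma, adjusted p = 0.0151), Flt4 by 0.36 ± 0.08 (adjusted p = 0.00486) and Mmrn1 by 0.40 ± 0.12 (adjusted p = 0.0221). The summed level of all 6 overlapped, at 347 to 551 TPM in control and 368 to 543 in IF. Prox1, which defines the lineage, was higher by 0.32 ± 0.16 (adjusted p = 0.155). Of 7 macrophage markers 2 rose, against 21.9% of all genes passing in that comparison, and the sums were 515 to 639 and 561 to 629 TPM. The part of these cells in the Lyve1 difference was not tested.

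Across the set, 3 of the 10 genes (Has1, Has2 and Cemip) met the criteria of a differentially expressed gene (DEG, changed 2 times or more with a raw p under 0.05) in IF against control, all higher. Of all genes tested, 4.03% did. The groups did not overlap for 4 of the 10, against 12.8% of all genes. In PBMC against IF 0 of 10 met the criteria, against 0.438% of all genes, 1 of 10 had a raw p under 0.05 in limma, against 6.79%, and 1 of 10 (Cd44) did not overlap, against 1.01%. In PBMC-hCG against IF 3 of 10 (Has1, Has2 and Cemip) met them, all lower, against 2.31% of all genes, and 2 of 10 (Has1 and Has2) did not overlap, against 7.24%. In PBMC-hCG against PBMC 2 of 10 (Has1 and Cemip) met them, both lower, against 0.893% of all genes, and 0 of 10 failed to overlap, against 3.46%. Since the genes were chosen on these groups, nothing is read from these shares. Comparisons that name the same group share its mice.

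The median log2 difference over the 10 genes was 0.32 in IF against control, against 0.02 over all genes tested. It was -0.05 in PBMC against IF (0.02 over all genes), -0.17 in PBMC-hCG against IF (0.05) and -0.32 in PBMC-hCG against PBMC (0.02). Single mice decided some memberships. Without control replicate 2, Has2 no longer met the criteria in IF against control and Vcan did, and the log2 differences there were 2.02 for Has1, 3.73 for Cemip, 0.49 for Tnfaip6 and 0.64 for Lyve1. Without IF replicate 5, Cemip no longer met them in PBMC-hCG against IF. Has3 met them there, as a gene higher in PBMC-hCG, when replicate 1 of IF (1.001), replicate 3 of IF (1.02) or replicate 1 of PBMC-hCG (1.05) was left out. In PBMC-hCG against PBMC, Has2 and Tnfaip6 joined Has1 and Cemip without PBMC replicate 1, PBMC replicate 2 or PBMC-hCG replicate 1, giving 4 genes, and Cemip no longer had a raw p under 0.05 without PBMC replicate 5, at a log2 difference of -1.07, giving 1.

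**Figure D3:**
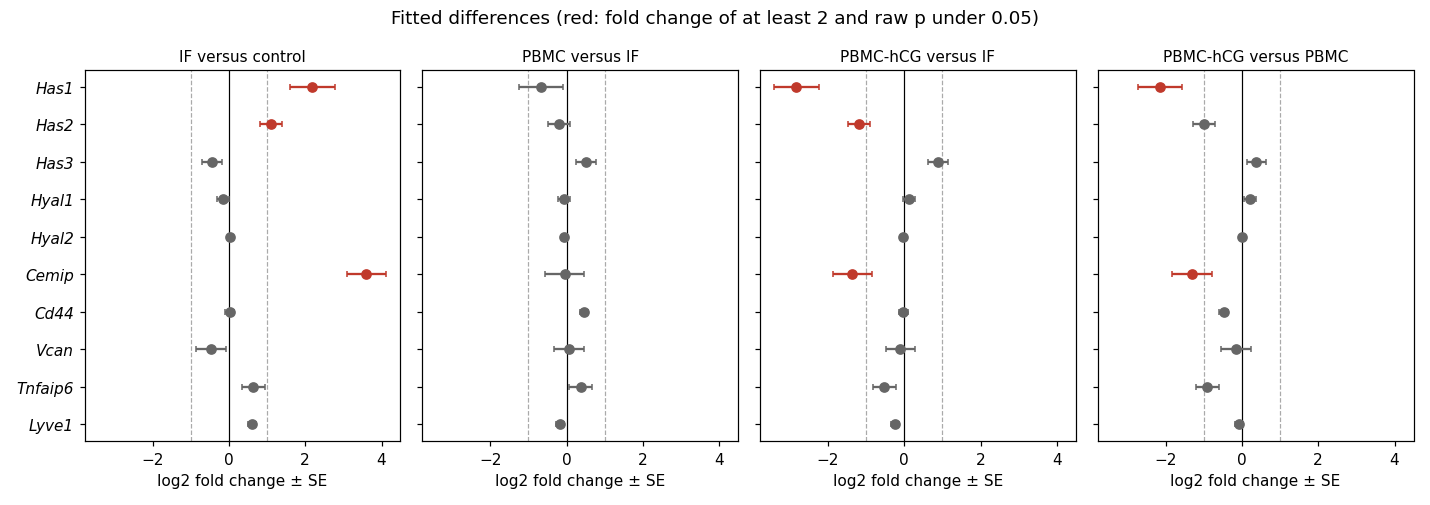
Log2 fold changes of the 10 hyaluronan genes (x axis, points with SE bars) in the 4 comparisons, from limma on log2(TPM + 0.1) with all 20 mice. Red points changed 2 times or more (dashed lines) with a raw p under 0.05, namely Has1, Has2 and Cemip in IF against control and in PBMC-hCG against IF, and Has1 and Cemip in PBMC-hCG against PBMC.

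Mice of the same group differed in these genes, and each mouse was set against its own group mean. The genes were nonetheless chosen on these same libraries. Has1, Has2 and Tnfaip6 had their largest SD in the PBMC mice, and the pairs were not recomputed without that group. The pairs are thus not evidence independent of the group differences. Each gene's deviation of log2(TPM + 0.1) from its group mean was correlated over the 20 mice for all 45 pairs of the 10 genes, with two-sided p-values from 100000 permutations within groups and Benjamini-Hochberg adjustment over the pairs. Of these, 3 pairs had an adjusted p of Pearson's r under 0.05. Has2 and Tnfaip6 went together, with r = 0.834 (permutation p = 0.00024, adjusted p = 0.0103) and Spearman's rho = 0.779 (permutation p = 0.00069). Has1 and Tnfaip6 also went together, with r = 0.749 (permutation p = 0.00149, adjusted p = 0.0223) and rho = 0.805 (permutation p = 0.00034). Has1 and Has3 went in opposite directions, with r = -0.722 (permutation p = 0.00046, adjusted p = 0.0103) and rho = -0.698 (permutation p = 0.0012).

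Without the 2 mice farthest from the median of the first gene the 3 values of r were 0.798, 0.669 and -0.682, and without control replicate 2 they were 0.817, 0.741 and -0.736. In both cases the group means still included the mice left out, unlike in the removal of mice numbered 5 below. Has1 and Has2 had r = 0.633 (permutation p = 0.00965, adjusted p = 0.109) and rho = 0.597 (permutation p = 0.0135). Cd44 and Tnfaip6 passed only on ranks, with rho = 0.705 (permutation p = 0.00318, adjusted p = 0.0358) against r = 0.587 (permutation p = 0.0245, adjusted p = 0.167). Mice numbered 5 had the highest Has1 of their group in control, IF and PBMC. Without the 4 mice so numbered, an alternative chosen after seeing the data, r was 0.853 for Has2 and Tnfaip6 (permutation p = 0.00059, adjusted p = 0.0265), 0.732 for Has1 and Tnfaip6 (permutation p = 0.0055, adjusted p = 0.10) and -0.596 for Has1 and Has3 (permutation p = 0.00804, adjusted p = 0.10), so that of the 3 pairs Has2 and Tnfaip6 still passed. Many genes moved together from mouse to mouse. Of 15770 genes with a mean of at least 1 TPM, 13.9% had r above 0.5 with Has1, 9.10% with Has2 and 9.68% with Tnfaip6. The shares with r above 0.8 were 0.222%, 0.0571% and 0.0634%. Shares of negative r were not computed.

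**Figure D4:**
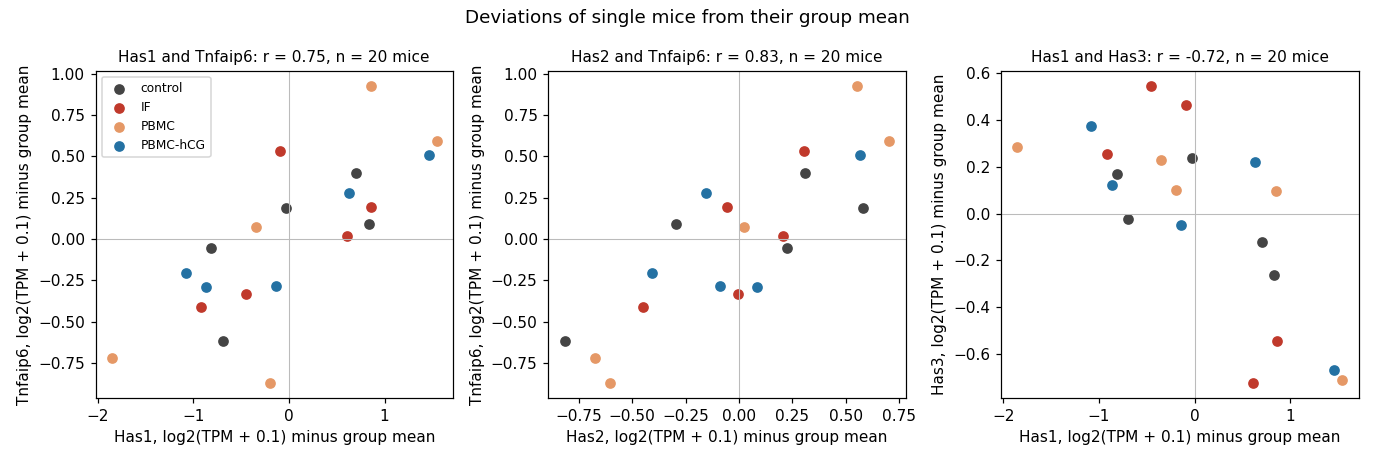
Deviation of each of 20 mice from its group mean in log2(TPM + 0.1) for Has1 and Tnfaip6, Has2 and Tnfaip6, and Has1 and Has3 (axes), with colours for the 4 groups. The points rise together in the first 2 panels (r = 0.75 and 0.83) and run downward in the third (r = -0.72), with mice of several groups at both ends.

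The genes whose within-group pattern was most like that of each member were named by the same correlation, as a description with n = 20 mice. For Has1 they were Nfil3 (r = 0.869), Pvr (0.867) and Slc30a9 (0.866). Has2 was most like Bdkrb2 (0.857), followed by Tnfaip6 (0.834) and Gm10146 (0.830). For Tnfaip6 the list was Dlc1 (0.852), Siah2 (0.842) and Has2 (0.834), so that Has2 and Tnfaip6 each stood among the 3 genes most like the other. Has3 was most like Lrrc28 (0.906), Cemip most like Cmip (0.893), Cd44 most like Dpysl3 (0.875), Hyal1 most like Gm10824 (0.879), Hyal2 most like Il2rg (0.847) and Lyve1 most like Dbndd2 (0.824). For Vcan the leading genes were Aldh1l2 (0.981), Pclaf (0.980) and Dtl (0.979), and 6.60% of the genes had r above 0.8 with it. Control replicate 2, whose Vcan was 5.04 TPM against 27.9 to 40.4 in the other control mice, entered these values.

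Other genes of the pathway were taken from a list of 48 by function, of which 38 were tested. The list was chosen with earlier results of these data known, so its p-values are not independent evidence. The hyaluronidase family genes Hyal4, Hyal5, Hyal6 and Spam1 were listed at 0 in every library, and 6 more genes were at 0 in some. In IF against control 8 of the 38 rose and 5 fell at an adjusted p under 0.05 in limma, against 21.9% of all genes tested passing in either direction. Without control replicate 2, 14 of the 38 and 5012 of all genes tested passed there, against 13 and 4104 with it. For PBMC-hCG against IF 3 rose and 10 fell, against 13.6% of all genes. That count hung on single mice. It was 13 and 17 without replicate 1 and replicate 3 of IF and 15 without PBMC-hCG replicate 1, but 0 without replicate 2 or 5 of IF or replicate 2 or 3 of PBMC-hCG, and 1 without replicate 4 of IF or replicate 4 or 5 of PBMC-hCG. The number of all genes passing there dropped in the same way, from 2544 to between 0 and 34 in those 7 cases. The adjusted p-values of PBMC-hCG against IF given below share this limit.

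In PBMC against IF 0 of the 38 passed in limma, as did 0% of all genes, while 5 of the 38 and 6.79% of all genes had an unadjusted p under 0.05. In PBMC-hCG against PBMC 0 of the 38 passed in limma, as against 0.0107% of all genes, and 13 of the 38 had an unadjusted p under 0.05, against 16.2% of all genes.

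The enzymes that supply the synthases with UDP-glucuronic acid and UDP-N-acetylglucosamine were all 10 tested. In IF against control 3 rose and 1 fell, and in PBMC-hCG against IF 1 rose and 5 fell, with medians of 0.26 and -0.51 on the log2 scale against 0.02 and 0.05 over all genes. The shares of all genes passing there were 21.9% and 13.6%. Ugdh, which makes UDP-glucuronic acid, had a lowest, median and highest value of 45.9, 78.7 and 100.1 TPM in control, 108, 120.4 and 212 in IF, 87.1, 95.7 and 185 in PBMC and 56.04, 60.1 and 91.97 in PBMC-hCG. The IF mice thus lay above all control and all PBMC-hCG mice, as with Has1 and Has2. Ugdh rose by 0.82 ± 0.23 in IF against control (SE, limma, adjusted p = 0.0168) and fell in PBMC-hCG against IF, with a log2 difference of -1.02 ± 0.23 (adjusted p = 0.0279).

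Gfpt2, an isoform of the enzyme that commits fructose 6-phosphate to amino sugar synthesis, rose by 0.88 ± 0.27 in IF (limma, adjusted p = 0.0225) and fell in PBMC-hCG against IF, with -0.95 ± 0.27 (adjusted p = 0.0346). The later enzymes of that route, Gnpnat1 and Uap1, fell in PBMC-hCG against IF, with -0.60 ± 0.15 (adjusted p = 0.0290) and -0.71 ± 0.16 (adjusted p = 0.0258). In IF against control they did not pass, at 0.34 ± 0.15 (adjusted p = 0.122) and 0.26 ± 0.16 (adjusted p = 0.259). Hexokinase Hk2 fell in PBMC-hCG, from 17.8 ± 7.32 to 7.54 ± 1.91 TPM (SD, n = 5), with -1.18 ± 0.30 on the log2 scale (adjusted p = 0.0292). Not all supply genes went this way. Ugp2, which makes UDP-glucose, fell in IF against control, with -0.48 ± 0.15 (adjusted p = 0.0241), Hk1 rose there by 0.29 ± 0.06 (adjusted p = 0.00134), and Gpi1 rose in PBMC-hCG against IF by 0.17 ± 0.05 (adjusted p = 0.0423).

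Of the 6 proteases that cleave versican, 2 rose and 1 fell in IF against control, where 21.9% of all genes passed. In PBMC-hCG against IF 1 rose and 3 fell, where 13.6% of all genes passed. Adamts1 and Adamts4 are known from the study of these same libraries and, like the rest of the list, are not independent evidence of a direction. Adamts1 was at 87.6 ± 15.8 TPM in control, 232 ± 52.7 in IF, 161 ± 56.3 in PBMC and 126 ± 41.9 in PBMC-hCG (SD, n = 5), a rise by 1.39 ± 0.24 in IF (limma, adjusted p = 0.000339) and a fall in PBMC-hCG against IF, with -0.91 ± 0.24 (adjusted p = 0.0304). Adamts4 rose by 1.31 ± 0.38 (adjusted p = 0.0191) and fell, with -1.33 ± 0.38 (adjusted p = 0.0367). Adamts5 went the other way in both comparisons, with a fall in IF (-0.72 ± 0.20, adjusted p = 0.0143) and a rise of 0.71 ± 0.20 in PBMC-hCG against IF (adjusted p = 0.0344). Adamts9 fell in PBMC-hCG against IF, with -0.71 ± 0.19 (adjusted p = 0.0307).

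**Figure D5:**
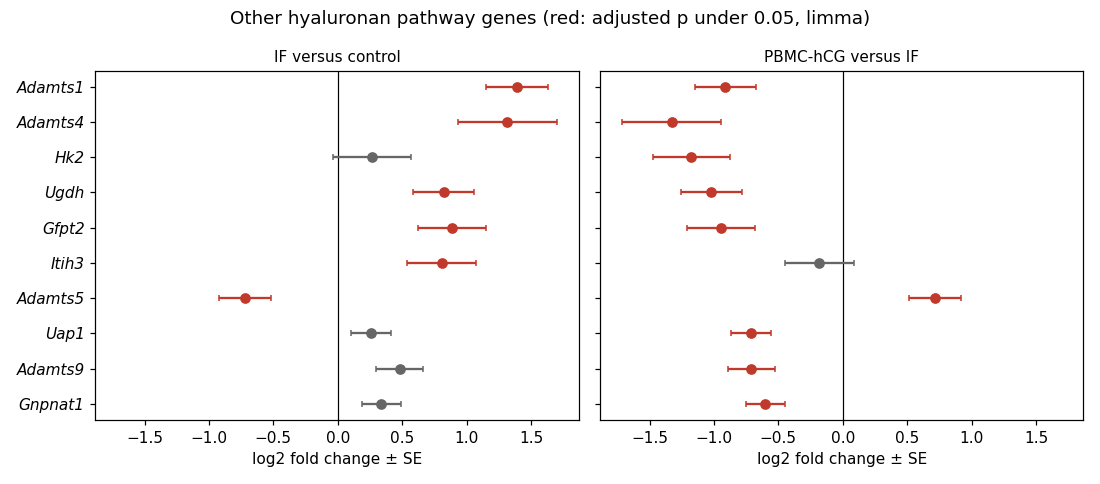
Log2 fold changes (x axis, points with SE bars) of 10 other hyaluronan pathway genes, in IF against control (left) and PBMC-hCG against IF (right). They had the largest differences among genes that passed in any comparison and had a mean of at least 1 TPM. Red points had an adjusted p under 0.05 in limma. Adamts5 alone of the 10 fell on the left and rose on the right, and both panels share the IF mice.

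Of 5 other breakdown genes tested, Gusb, the lysosomal glucuronidase, fell in IF, with -0.58 ± 0.08 (limma, adjusted p = 2.312e-05), and no other passed in either comparison. For this and the counts that follow, 21.9% of all genes passed in IF against control and 13.6% in PBMC-hCG against IF. Of 9 other receptors and binding proteins, Stab1, a scavenger receptor that clears hyaluronan, rose in IF by 0.50 ± 0.09 (adjusted p = 0.000438), Tlr4 rose by 0.52 ± 0.12 (adjusted p = 0.00366) and C1qbp fell, with -0.48 ± 0.12 (adjusted p = 0.00729). Between PBMC-hCG and IF, Layn rose by 0.39 ± 0.11 (adjusted p = 0.0370) and C1qbp fell, with -0.40 ± 0.12 (adjusted p = 0.0387). Of the 4 tested genes of the inter-alpha-trypsin inhibitor and pentraxin group, which crosslink hyaluronan, Itih3 rose in IF by 0.81 ± 0.27 (adjusted p = 0.0362) and Itih5 fell, with -0.58 ± 0.17 (adjusted p = 0.0175). Of 4 hyalectan and link protein genes, Hapln4 fell in PBMC-hCG against IF, with -1.17 ± 0.20 (adjusted p = 0.0200), at a mean under 1 TPM in every group.

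Markers of the cell types that whole uterus can hold also differed between the groups. The marker lists, also those used above for lymphatic endothelium and immune cells, were chosen with earlier results of these data known. Where Has1 was lower, in PBMC-hCG against IF, 6 of 7 markers of mesothelium, a layer known for making hyaluronan, rose in limma, led by Nkain4 with 1.02 ± 0.22 (adjusted p = 0.0258). Wt1 was the exception, with -0.01 ± 0.12 (adjusted p = 0.967). The 7 summed to between 106 and 167 TPM in control, 126 and 160 in IF, 166 and 180 in PBMC and 153 and 209 in PBMC-hCG. The PBMC sums thus all lay above the IF sums, with 7 of 7 markers higher. In PBMC-hCG against IF, where 13.6% of all genes passed, 1 of 8 stroma markers, 1 of 6 epithelium markers and 1 of 4 blood endothelium markers rose, 1 of 6 lymphatic markers (Pdpn) fell with -0.94 ± 0.23 (adjusted p = 0.0287), and of the smooth muscle, macrophage, lymphocyte and ovary and oviduct markers none passed. Among these, 0 of 5 smooth muscle markers were higher, with a median log2 difference of -0.23 against 0.05 over all genes. Smooth muscle sums were 4305 to 5358 TPM, against 5335 to 6422 in IF. By contrast, 6 of 7 macrophage markers, 6 of 7 lymphocyte markers and 2 of 5 ovary and oviduct markers were higher. In IF against control, in which Has1, Has2 and Cemip were higher and 21.9% of all genes passed, 3 of 8 stroma markers, 4 of 6 epithelium markers, 4 of 4 blood endothelium markers, 3 of 6 lymphatic markers and 2 of 7 macrophage markers rose, while 1 epithelium, 1 of 5 smooth muscle and 1 of 5 tested ovary and oviduct markers fell and 0 of 7 mesothelium and 0 of 7 lymphocyte markers passed. Blood endothelium marker sums did not overlap between control (291 to 392.1 TPM), IF (434 to 474) and PBMC-hCG (485 to 550.3). Those of PBMC, 444 to 507 TPM, overlapped both IF and PBMC-hCG. Stroma marker sums were 5837 to 10880 TPM in control and 10440 to 12530 in IF. The 5837 was control replicate 2, and the other control mice lay at 10180 or more. Cyp19a1, an ovarian marker, was at 0 in all libraries. Of the 5 uterus markers 2 rose and 2 fell in IF against control and 1 rose in PBMC-hCG against IF. The 4 fat markers were at 0 in some libraries and were not tested. In PBMC against IF no marker passed, as no gene did, and in PBMC-hCG against PBMC no marker passed, against 0.0107% of all genes, so these tests say nothing of the markers. The part of these cell types in the differences of the hyaluronan genes was not tested.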

How the data were processed

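Uterine RNA of 20 mice, 5 per group by the labels, was measured in poly(A) RNA-seq libraries. The authors deposited TPM values. Per the labels and the study's methods, reads were trimmed with Trimmomatic, mapped to mm10 with HISAT2 and quantified with StringTie (versions not given in the sources used here). The authors called DEGs on counts with edgeR. Counts were not used here, so depth is unknown and no counting error is given. TPM are shares of a library, so a change in abundant genes shifts all others.

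The fit covered 18706 genes with values above 0 in all libraries, on log2(TPM + 0.1) with limma 3.58.1 in R 4.3.3, with 4 groups in 1 model and a variance trend. A fold change is on that scale. Adjusted p-values are Benjamini-Hochberg values over all genes tested. A DEG changed 2 times or more with a raw p under 0.05. Labels number replicates but do not say that numbers are shared, and p-values measure the spread between mice. The R package data.table, version 1.17.8, read the files. Correlations, promoter searches and figures were made in Python 3.11.15 with numpy 2.4.6, pandas 2.3.3, scipy 1.17.1 and matplotlib 3.10.9. Genes were placed by NCBI identifier on the RefSeq annotation of GRCm38.p6, the patched form of mm10, with exons from GENCODE.

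The 10 genes, the pathway list and the cell type marker lists were chosen with earlier results of these data known. Of other pathway genes, those with an adjusted p under 0.05 in any comparison and a mean of at least 1 TPM qualified to be named, and the 10 with the largest change were. Genes beyond these 10 (Hk1, Ugp2, Gpi1, Gusb, Stab1, Tlr4, C1qbp, Layn, Itih5, Hapln4) and the markers named were chosen after their values were seen. For each member, up to 3 genes with the highest within-group correlation are named. Alternatives were other pseudocounts, filters, scalings, thresholds, fits to 2 groups or without the trend, a replicate block and leaving out each mouse.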

Additional observations from a re-analysis of the deposited data

Results flagged for a closer look

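For each of the 10 genes in each group, the lowest and the highest mouse were compared with the rest by Dixon's ratio, the gap to the nearest other mouse divided by the range of the group. The ratio was taken on TPM, not on the log2 scale of the fits, on which other sets could be flagged. Of 40 sets of 5 mice, 3 had a ratio above the critical value of 0.71. For normally distributed values chance gives about 1 in 20, and TPM need not be so distributed. Cemip in IF had a ratio of 0.779, from 68.3 TPM in replicate 5 against 3.91 to 18.1 in the others. Has3 in PBMC had a ratio of 0.755, from 1.31 TPM in replicate 5 against 2.37 to 2.71, and the same mouse held the highest Has1 (33.3 TPM) and Has2 (42.1 TPM) of its group. Vcan in PBMC-hCG had a ratio of 0.742, from 11.7 TPM in replicate 4 against 15.9 to 17.4.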

How the results depend on the processing

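No log2 fold change of the 10 genes moved by more than 1 SD within groups or changed the sign of a called value in 760 recomputed values. Many of these values could not have moved so far. Leaving out 1 of 5 mice cannot shift a group mean by that SD. Other gene filters, fits to 2 groups or without the trend and a replicate block keep the group differences. No stability is thus read from this rule. Cemip in PBMC-hCG against IF went from -1.36 to -0.81 without IF replicate 5. Vcan in IF against control went from -0.47 to -1.01 without control replicate 2. The count of DEGs among them in IF against control, 3, became 5 at a fold change of at least 1.5 and stayed 3 without each mouse, with the exchange of Has2 for Vcan without control replicate 2. In PBMC against IF it was 0 under every alternative, with 1 of 10 at an unadjusted p under 0.05. In PBMC-hCG against IF it was 3, and 2 to 4 without each mouse. In PBMC-hCG against PBMC, 2 became 4 at a fold change of at least 1.5, 0 by adjusted p at any fold change and 1 to 4 without each mouse. Has2 met the criteria there also under quantile normalization and without PBMC-hCG replicate 4, with log2 differences of -1.004 and -1.01.

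Of the other pathway genes, 13 passed in IF against control, 2 by the DEG criteria and 8 to 14 without each mouse, with 8 without IF replicate 5. In PBMC-hCG against IF 13 passed, 5 when all genes above 0 TPM in any library were tested, 4 by the DEG criteria and 0 to 17 without each mouse. In PBMC-hCG against PBMC 0 passed, and 2 by the DEG criteria. The cause of these moves was not tested. With the replicate number as a block the 4 counts of DEGs were 3, 0, 3 and 2, and those of the other pathway genes 13, 0, 14 and 0. The correlation of same-numbered mice ran from -0.247 to 0.457 over the comparisons, with 3, 1, 0 and 1 of 5 above 0.1 and 1, 1, 0 and 1 of 5 closest to its own number. Mice numbered 5 did so in IF against control (0.396) and PBMC against IF (0.457), a hint from the data that the labels do not settle, and the numbers were not taken to pair the mice. Quantile normalization and median centring moved the median of all genes by under 0.1. The DEGs of PBMC-hCG against IF, 204 higher and 228 lower, became 124 and 268 under quantile normalization and 181 and 245 under median centring. Those of PBMC-hCG against PBMC, 72 higher and 95 lower, became 52 and 114 under quantile normalization. Reads per library are unknown, which limits genes of low level such as Has3.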
